A study of Mus musculus with 2 samples.

Results

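Chemokines, interleukins and their receptors were taken from the gene table by name: every entry whose symbol begins Ccl, Cxcl, Ccr, Cxcr or Il followed by a digit, or begins Cx3c, other than Il6st. The rule found 142 of 30385 entries, of which 56 had no read in either library, 36 had 1 to 9 reads in the higher library, 26 had 10 to 49 and 24 had at least 50, called measured here. The 4 Ccl21 entries share reads, as do 2 Ccl19 entries, and Il1e and Il1f6 share a position, so the 142 entries stand for 137 genes. The names also take in proteins that are not signalling ligands or receptors: Il1rn, the interleukin-1 receptor antagonist, Il18bp, a soluble decoy for interleukin-18, and Il4i1, an amino acid oxidase named for its induction by interleukin-4.

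The study sequenced heart RNA of mice by 5′RNA-seq, a polyA RNA method without fragmentation in which reads gather near transcription starts. There was 1 library of wild-type mice (WT) and 1 of MHC403/+ mice, which carry a missense mutation in a cardiac myosin heavy chain and are a model of hypertrophic cardiomyopathy. Both were of strain 129/SvEv, aged 8 to 16 weeks, and both had received CsA (cyclosporine A, which inhibits calcineurin and is used to suppress T cells) under the skin, 15 mg/kg in each of 2 injections a day for 2 weeks. A group without CsA was not analysed here. Animals had been pooled before sequencing (how many: not given in the sources used here). Each gene therefore has 1 value per genotype, differences cannot be set against a spread between animals, and p-values are left out. The libraries held 5468677 reads (MHC403) and 5481123 reads (WT), and the members, copies counted once, took 0.104% of the MHC403 reads (exact Clopper-Pearson 95% interval 0.101 to 0.107) and 0.0638% of the WT reads (0.0617 to 0.0660). Each ratio divides the MHC403 level by the WT level, both as shares of these totals, and its exact 95% interval covers counting error only. In whole heart tissue, more cells of a type and more RNA per cell cannot be told apart.

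Chemokines are small secreted proteins that guide leukocytes along gradients and act through receptors coupled to inhibitory G proteins. They are classed as CC, CXC or CX3C by the spacing of cysteines near the amino end, and some are inducible by tissue injury while others, such as Cxcl12, are made constitutively. Interleukins are a mixed group of cytokines that signal through paired receptor chains, most of them through JAK kinases and STAT factors, and the interleukin-1 and interleukin-17 families through NF-kB. In the heart they are made by resident macrophages, endothelium, fibroblasts and incoming leukocytes.

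Several of the inducible members are textbook targets of NF-kB. The stretch of 250 bases before the annotated start is therefore shown for 3 such genes (Cxcl1, Cxcl10 and Il6). It is also shown for the CC chemokine Ccl8, the receptor chain Il4ra and the constitutive chemokine Cxcl12. Sequences are 5′ to 3′ on the gene's strand, from RefSeq on GRCm38.p6, at chr5:90890995-90891244 (plus), chr5:92348890-92349139 (minus), chr5:30012864-30013113 (plus), chr11:82114935-82115184 (plus), chr7:125552021-125552270 (plus) and chr6:117168285-117168534 (plus), in that order. Capitals mark matches to the NF-kB consensus or to TATAAA on either strand.
Cxcl1: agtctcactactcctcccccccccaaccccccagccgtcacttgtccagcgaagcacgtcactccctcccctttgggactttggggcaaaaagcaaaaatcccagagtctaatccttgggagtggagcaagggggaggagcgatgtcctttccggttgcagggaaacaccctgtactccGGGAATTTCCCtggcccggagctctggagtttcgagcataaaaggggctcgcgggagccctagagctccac
Cxcl10: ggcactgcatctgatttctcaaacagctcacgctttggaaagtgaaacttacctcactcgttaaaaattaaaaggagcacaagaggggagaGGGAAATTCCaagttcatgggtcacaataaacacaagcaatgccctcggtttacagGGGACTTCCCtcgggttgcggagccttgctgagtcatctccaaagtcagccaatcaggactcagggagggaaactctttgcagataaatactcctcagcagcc
Il6: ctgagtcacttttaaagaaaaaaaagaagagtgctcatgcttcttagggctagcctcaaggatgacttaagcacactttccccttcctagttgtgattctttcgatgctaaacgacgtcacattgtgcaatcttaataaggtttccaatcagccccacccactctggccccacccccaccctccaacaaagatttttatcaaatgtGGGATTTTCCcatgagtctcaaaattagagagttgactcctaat
Ccl8: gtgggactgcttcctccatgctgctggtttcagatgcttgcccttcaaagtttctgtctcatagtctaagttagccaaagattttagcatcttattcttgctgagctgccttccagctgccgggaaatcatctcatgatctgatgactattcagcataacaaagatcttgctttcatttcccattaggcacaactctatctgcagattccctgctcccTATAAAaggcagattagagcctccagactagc
Il4ra: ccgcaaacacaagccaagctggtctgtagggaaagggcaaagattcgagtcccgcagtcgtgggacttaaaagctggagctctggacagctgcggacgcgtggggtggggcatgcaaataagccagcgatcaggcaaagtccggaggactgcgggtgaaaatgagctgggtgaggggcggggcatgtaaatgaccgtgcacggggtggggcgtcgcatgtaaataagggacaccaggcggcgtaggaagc
Cxcl12: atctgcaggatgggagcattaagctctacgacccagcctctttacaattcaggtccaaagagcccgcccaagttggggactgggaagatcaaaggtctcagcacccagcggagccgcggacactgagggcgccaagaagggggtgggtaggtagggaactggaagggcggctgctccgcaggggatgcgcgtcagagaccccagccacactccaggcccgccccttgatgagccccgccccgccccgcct
Cxcl1 had overlapping NF-kB matches whose first bases lie 71 and 70 bases before the start, Cxcl10 had matches 159 and 103 bases before it, and Il6 had 1 match 44 bases before it. Ccl8 had TATAAA 32 bases before the start, and the windows of Il4ra and Cxcl12 held neither motif. Over the 32536 distinct windows of this length in the RefSeq table, 3.92% held an NF-kB match and 12.3% held TATAAA. Of the 125 windows of members, 13 (10.4%) and 25 (20%) did. Windows were found for 107 of the 142 entries, a match is a description of the letters only, and the read table is on another build (mm9), so its starts were not compared with these.

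The monocyte chemokine Ccl2, the membrane-bound chemokine Cxcl16 and the receptor chains Il4ra, Il17ra, Il17rc and Il10ra had more reads in the MHC403 heart library. The constitutive chemokine Cxcl12 (1.11-fold lower) and the receptor chain Il10rb (1.40-fold lower) had fewer, and the chemokine Ccl24 had none in that library. Of the 24 measured entries 14 were higher by 2-fold or more in MHC403, none was lower by 2-fold or more and 10 lay within 2-fold. Over all 9507 measured entries, 26.1% were higher by this rule and 2.43% lower. The counting interval lay wholly above a ratio of 1 for 20 of the 24 (63.2% of all measured entries) and wholly below it for 2 (10.3%). With the Ccl21 copies counted as 1, the 14 stood among 21 genes. At least 4-fold higher were 8 of the 24 (Ccl2, Cxcl16, Cxcr4, Il1r1, Il4ra, Il10ra, Il17ra and Il17rc), against 5.80% of all measured entries. The median log2 ratio of the 24 was 1.42, against 0.57 for all measured entries. Most of the high ratios were at modest depth: 12 of 15 members with at least 50 but under 200 reads were 2-fold higher, against 27.1% of all entries of that depth. With at least 200 reads 2 of 9 entries were 2-fold higher, or 2 of 6 (33.3%) with the Ccl21 copies counted as 1, against 24.7%. Among the 26 entries with 10 to 49 reads, where a library at 0 was set to a floor of 3 counts, 17 were 2-fold or more higher and 2 lower, against 35% and 6.03% of all 4448 entries of that depth. Members just under the minimum were Ccl8 (47 reads in the higher library), Il17rd (46), Ccl9 and Il4i1 (40 each), and those just over it were Il34 and Il10ra (52 each), Il1r1 (54) and Cxcr4 (56).

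**Figure D1:**
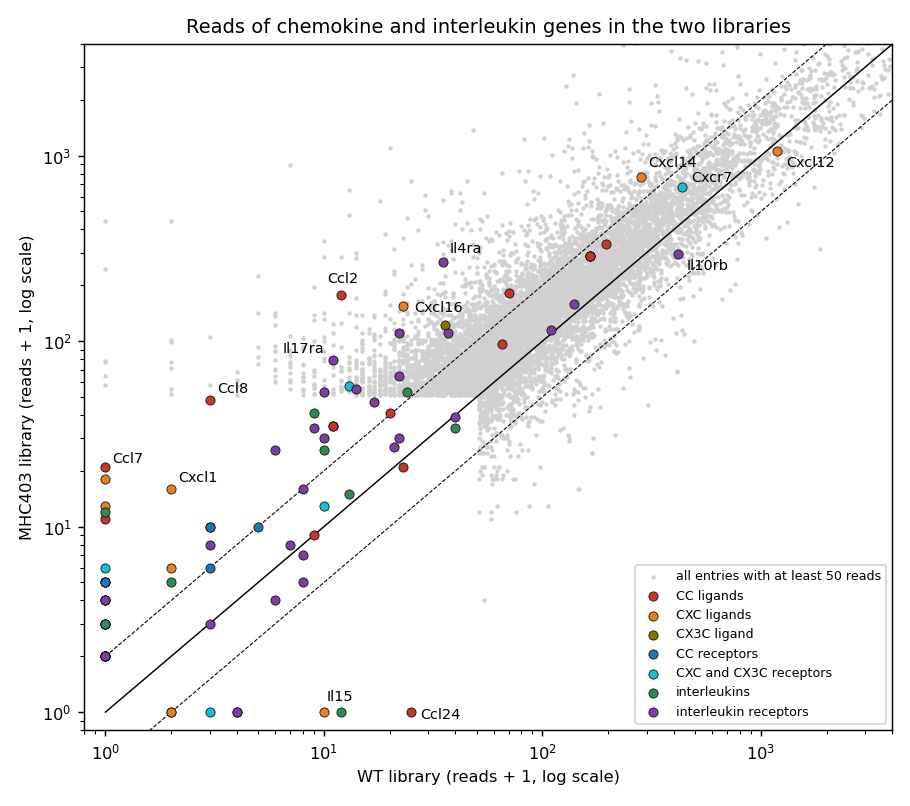
Reads plus 1 in the WT library (horizontal) and the MHC403 library (vertical), both on log axes, for members with any read (coloured by class) and for all measured entries within the axes (grey). The solid line marks equal reads and the dashed lines 2-fold; Ccl2, Ccl8, Il4ra and Cxcl16 lie above the upper dashed line, Cxcl12 lies just under the solid line, and Ccl24 and Il15 lie at the bottom, with 0 MHC403 reads.

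Among CC ligands, Ccl2, Ccl8 and Ccl7 stood out. Ccl2, the main ligand of Ccr2 that draws monocytes out of blood (mm9 chromosome 11, 81849078 to 81850954), had 176 reads in the MHC403 library and 11 in WT, 16.0-fold higher (8.75 to 32.7). Ccl8, a nearby CC chemokine gene (chromosome 11, 81928686 to 81930301), had 47 reads against 2, 23.6-fold higher (6.17 to 200.2). Ccl7, which like Ccl2 binds Ccr2 (chromosome 11, 81859213 to 81861025), had 20 against 0, at least 6.68-fold higher against the floor of 3 counts. Ccl12 had 4 reads against 0, too few to separate the libraries. These 4 genes lie in 1 block of 6 chemokine genes on chromosome 11, from 81849078 to 81993314 (144 kb). In the same block the eosinophil attractant Ccl11 had 20 reads against 22 (ratio 0.911, 0.472 to 1.75), and Ccl1 had no read in either library. So neighbouring genes of the block differed: summed over the block there were 267 reads against 35. Ccl2 gave most of the MHC403 reads and Ccl11 most of the WT reads.

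A second block on chromosome 11, from 83339280 to 83478185, holds Ccl5, Ccl9, Ccl6, Ccl3 and Ccl4. Ccl6, a macrophage chemokine of rodents (chromosome 11, 83401387 to 83406589), had 180 reads against 69, 2.61-fold higher (1.97 to 3.50), and its relative Ccl9 had 40 against 19, 2.11-fold higher (1.19 to 3.86). Ccl4, made by activated macrophages and lymphocytes, had 10 reads against 0, at least 3.34-fold higher against the floor, and the entry ScyA4 at the same position also lists 10 against 0. Ccl5, a lymphocyte chemokine, had 9 against 2, with an interval that spans a ratio of 1 (0.934 to 42.9), and Ccl3 had 2 against 0. Summed over this block, 241 reads in MHC403 stood against 90 in WT.

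**Figure D2:**
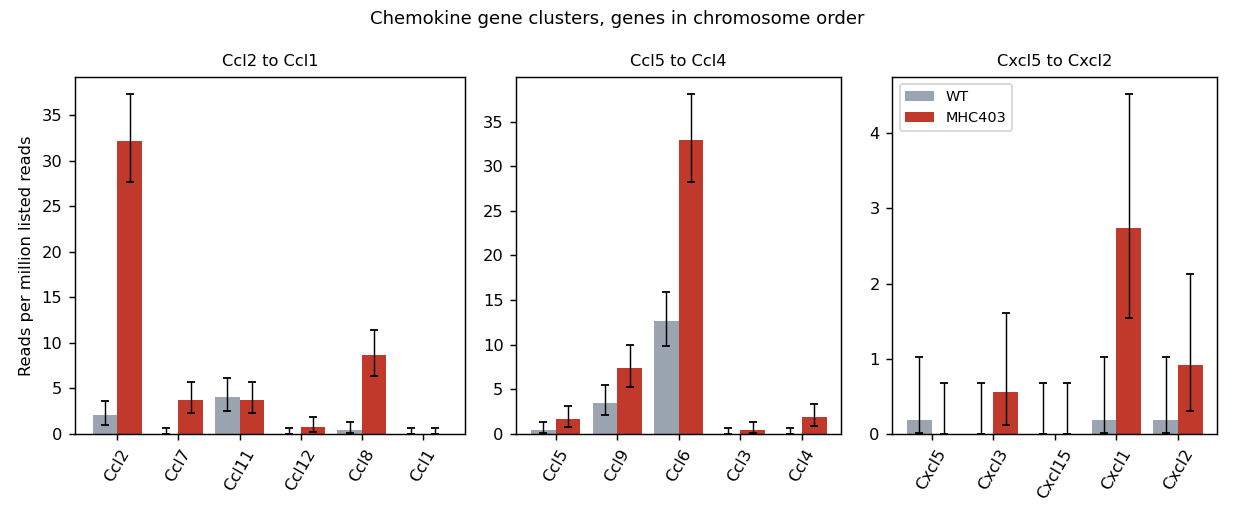
RPM (reads per 1000000 listed reads) in WT (grey) and MHC403 (red) for the genes of the chemokine blocks on chromosome 11 (left and middle) and of 1 block on chromosome 5 (right), in chromosome order, with exact 95% Poisson intervals as error bars and separate vertical scales. Ccl2 (32.2 against 2.01), Ccl8, Ccl6 and Cxcl1 are higher in MHC403, and the Ccl11 intervals overlap.

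The lymphoid chemokines of Ccr7, Ccl19 and Ccl21, guide dendritic cells and T cells. The 2 Ccl19 entries list the same 34 reads against 10, 3.41-fold higher (1.65 to 7.73). Ccl21a had 331 reads against 195, 1.70-fold higher (1.42 to 2.04), and Ccl21b and both Ccl21c entries each list the same 287 reads against 164, 1.75-fold higher (1.44 to 2.14). Copies of these genes are nearly identical: 78.1% of the 36-base words of Ccl21a transcripts and 100% of those of Ccl21b also occur in transcripts of other genes, and 56.8% for Ccl19, so the copies cannot be told apart. Ccl27a, a skin-type chemokine with similar copies (53.3% of words shared), had 95 reads against 64, 1.49-fold higher (1.07 to 2.08), and its windows overlap those of other entries.

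Ccl24 went the other way. This eosinophil and macrophage chemokine (eotaxin-2, chromosome 5, 136045806 to 136048913) had 0 reads in the MHC403 library and 24 in WT, at least 7.98-fold lower against the floor. Only 2 further members had no MHC403 read and more than 3 WT reads. They were Il15, a growth factor of natural killer and memory T cells (chromosome 8, 84855522 to 84927110), with 0 against 11 and at least 3.66-fold lower, and Cxcl9, an interferon-induced chemokine named here after its values were seen, with 0 against 9 and at least 2.99-fold lower. In the opposite direction 9 members had no WT read and more than 3 MHC403 reads. Of these, Ccl12, Ccl17 and Ccr7 (4 reads each) and Cxcr6 (5) had intervals that span a ratio of 1. The share of all entries with reads in 1 library only was not counted, so these counts are not a result about the members. At 10 to 49 reads, entries of the whole table also leaned to MHC403 (35% higher, 6.03% lower).

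Among CXC ligands, Cxcl16 was the measured gene with the largest ratio. Cxcl16, a membrane-bound chemokine and scavenger receptor of macrophages and endothelium (chromosome 11, 70267735 to 70273486), had 153 reads against 22, 6.97-fold higher (4.44 to 11.5). Its windows overlap those of the opposite-strand gene Zmynd15, listed with 91 against 14, so reads in the overlap cannot be assigned to either. Cxcl14, a chemokine of fibroblasts and epithelia (chromosome 13, 56390005 to 56397912), had 771 reads against 281, 2.75-fold higher (2.40 to 3.16), and the entry Bmac at the same position lists 741 against 275. Cxcl12, the constitutive ligand of Cxcr4 made by stromal and endothelial cells (chromosome 6, 117118552 to 117131386), had 1065 reads against 1186, 1.11-fold lower (1.02 to 1.21). The 2 libraries therefore held nearly the same Cxcl12 reads while the other measured CXC ligands were higher in MHC403.

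The 10 CXC ligands under 50 reads summed to 52 reads in MHC403 and 13 in WT, of which Cxcl9 gave 9. Cxcl1, a neutrophil attractant (chromosome 5, 91320270 to 91322141), had 15 reads against 1, which gives 15.0 (2.31 to 633). Its neighbours Cxcl2 and Cxcl3, which act on the same receptor, had 5 against 1 and 3 against 0. Cxcl10, an attractant of activated T cells that is induced by interferon and NF-kB (chromosome 5, 92775666 to 92777880), had 17 reads against 0, at least 5.68-fold higher against the floor. Cxcl13, the B cell chemokine, had 12 against 0, at least 4.01-fold higher. Cxcl9 and Cxcl10 lie side by side on chromosome 5 and share the receptor Cxcr3, yet their reads lay in opposite libraries.

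The only CX3C ligand, fractalkine (Cx3cl1, a membrane-tethered chemokine of endothelium and neurons, chromosome 8, 97296079 to 97306326), had 121 reads against 35, 3.47-fold higher (2.36 to 5.20). Its receptor Cx3cr1, a marker of resident monocytes and macrophages, had 12 against 9 (ratio 1.34, 0.517 to 3.59), which leaves its direction undetermined at this depth.

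Chemokine receptors were mostly at or near 0. None of the 11 CC receptor entries reached 50 reads, and 5 had none in either library. All 6 with reads had more in MHC403. Among them Ccr1, a receptor of monocytes and macrophages, had 9 against 2, Ccr10 5 against 2, Ccr7 4 against 0 and Ccr2 2 against 0. Singly none of these separates the libraries, and together the CC receptors gave 30 reads against 8, 3.76-fold higher (1.68 to 9.49). All entries of the table under 50 reads also leaned to MHC403, with a summed ratio of 1.39 (1.38 to 1.41). The share of such entries with more MHC403 reads was not counted, so the count of 6 is not a result about the members. Cxcr4, the Cxcl12 receptor of leukocytes and vessels (chromosome 1, 130484775 to 130488876), had 56 reads against 12, 4.68-fold higher (2.48 to 9.59). Cxcr7, a scavenging receptor for Cxcl12 (chromosome 1, 92100577 to 92112863), had 673 against 436, 1.55-fold higher (1.37 to 1.75), close to the 1.48-fold median of all measured entries. Cxcr6, the Cxcl16 receptor of T cells, had 5 against 0, Cxcr2 had 2 against 0 and Cxcr3 0 against 2.

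**Figure D3:**
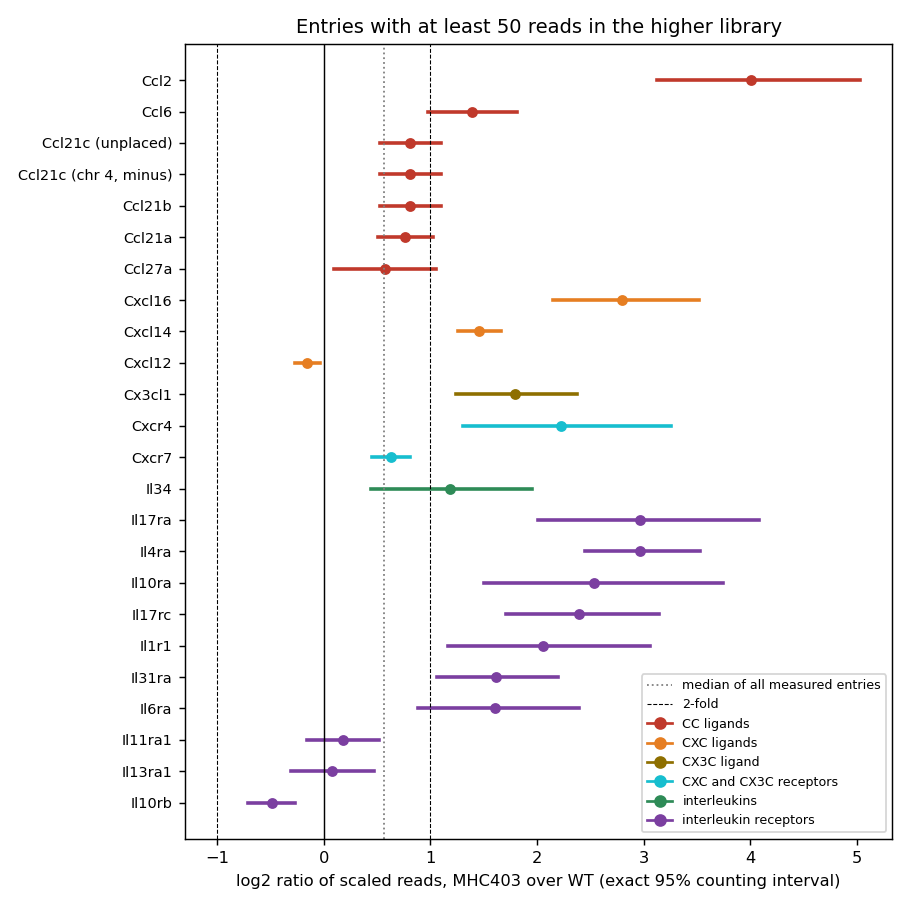
Log2 of the MHC403 over WT ratio of library shares for the 24 measured entries (points) with exact 95% counting intervals (lines), coloured by class; the solid line marks equal reads, the dashed lines 2-fold and the dotted line the median of all measured entries (0.57). Ccl2 is farthest to the right, the Ccl21 copies sit near the dotted line, and Cxcl12 and Il10rb have intervals below 0.

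Interleukin ligands were almost absent. Of 43 entries, Il1rn and Il4i1 among them, 30 had no read in either library, among them Il4, Il5, Il10, Il11, Il13 and Il1a, and a count of 0 allows up to 0.549 RPM in MHC403 and 0.547 in WT. The single measured ligand was Il34, a second ligand of the macrophage receptor Csf1r (chromosome 8, 113265728 to 113329803), with 52 reads against 23, 2.27-fold higher (1.36 to 3.88). Il6, the acute-phase cytokine (chromosome 5, 30339700 to 30346521), had 11 reads against 0, at least 3.68-fold higher against the floor. Il33, an alarmin stored in nuclei of stromal cells, had 25 against 9, 2.78-fold higher (1.26 to 6.78), while its receptor chain Il1rl1 had no read in either library. Il1b had 4 against 1 and Il18 2 against 0. Il16, a T cell attractant, and Il17d had 33 against 39 and 14 against 12, with intervals that span a ratio of 1. The oxidase Il4i1 had 40 against 8, 5.01-fold higher (2.31 to 12.4).

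Receptor chains for interleukins carried more reads than the ligands did, with 10 of 41 entries measured and 7 of those 10 higher by 2-fold or more, against 26.1% of all measured entries. The chain shared by the receptors for interleukin-4 and interleukin-13, Il4ra (chromosome 7, 132695795 to 132722988), had 265 reads against 34, 7.81-fold higher (5.45 to 11.5). Its partner in non-lymphoid cells, Il13ra1, had 114 against 108 (ratio 1.06, 0.806 to 1.39), and the partner in lymphoid cells, the common gamma chain Il2rg, had 29 against 9, 3.23-fold higher (1.49 to 7.76). The 3 chains of this receptor group thus did not shift by a common factor, and 28.4% of the words of Il2rg also occur in the entry Gm20489.

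The interleukin-17 receptor chains Il17ra and Il17rc form 1 receptor that signals to NF-kB. Il17ra (chromosome 6, 120413214 to 120433745) had 78 reads against 10, 7.82-fold higher (4.03 to 16.9), and Il17rc (chromosome 6, 113421448 to 113433132) had 110 against 21, 5.25-fold higher (3.27 to 8.82). Il17rd, a family member also known as an inhibitor of FGF signalling, had 46 against 16, 2.88-fold higher (1.60 to 5.45). Il17re had 6 against 7, and Il17rb had no read. The ligands Il17a, Il17b, Il17c and Il17f had no read in either library, and Il25 had 1 against 0.

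In the interleukin-10 receptor group the chains lay on opposite sides. Il10ra, the ligand-binding chain of leukocytes (chromosome 9, 45061921 to 45077229), had 52 reads against 9, 5.79-fold higher (2.83 to 13.4). Il10rb, the widely made chain that it pairs with and that other receptors share (chromosome 16, 91406479 to 91426079), had 295 against 415, 1.40-fold lower (1.21 to 1.64), with 14.6% of its words shared with other entries. Il20rb had 25 against 5, 5.01-fold higher (1.88 to 16.8), and Il28ra, the interferon-lambda receptor chain, had 26 against 20 (ratio 1.30, 0.700 to 2.46).

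In the interleukin-1 receptor group, Il1r1, the signalling receptor (chromosome 1, 40281924 to 40373022), had 54 reads against 13, 4.16-fold higher (2.24 to 8.32). Its accessory chain Il1rap had 15 against 7 (ratio 2.15, 0.824 to 6.23). The decoys Il1r2 and Il18bp had 1 against 0 and 29 against 21, and the antagonist Il1rn had 3 against 0. Il6ra, which signals with gp130 (chromosome 3, 89673245 to 89717084), had 64 reads against 21, 3.05-fold higher (1.84 to 5.27). Il31ra, also called gp130-like receptor (chromosome 13, 113310105 to 113384568), had 110 against 36, 3.06-fold higher (2.08 to 4.60). Il11ra1, a chain of fibroblasts, had 157 against 139 (ratio 1.13, 0.895 to 1.43), and 54.3% of its words are shared with copies such as Il11ra2. Il3ra had 33 against 8, 4.13-fold higher (1.87 to 10.4), whereas Il15ra had 38 against 39 and Il7r 3 against 5, with intervals that span 1.

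Summing low-count members by class gives depth that single genes lack. With copies counted once, members under 50 reads in both libraries summed to 709 reads against 359, 1.98-fold higher (1.74 to 2.25), while all entries of the table under 50 reads summed to a ratio of 1.39 (1.38 to 1.41). By class the low-count sums were 198 against 87 for CC ligands (2.28, 1.76 to 2.97), 52 against 13 for CXC ligands (4.01, 2.15 to 8.03) and 20 against 11 for CXC and CX3C receptors (1.82, 0.832 to 4.21). They were 135 against 80 for interleukins (1.69, 1.27 to 2.26) and 274 against 160 for interleukin receptors (1.72, 1.41 to 2.10). The member with most reads weighed heavily in some class sums. All 13 CXC ligands summed to a ratio of 1.36 (1.27 to 1.46), and the 12 without Cxcl12 to 3.10 (2.72 to 3.53). The 8 CXC and CX3C receptors summed to 1.64 (1.45 to 1.84), and the 7 without Cxcr7 to 3.31 (2.05 to 5.53). The 41 interleukin receptor entries summed to 1.63 (1.51 to 1.77), and to 2.32 (2.10 to 2.57) without Il10rb.

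**Figure D4:**
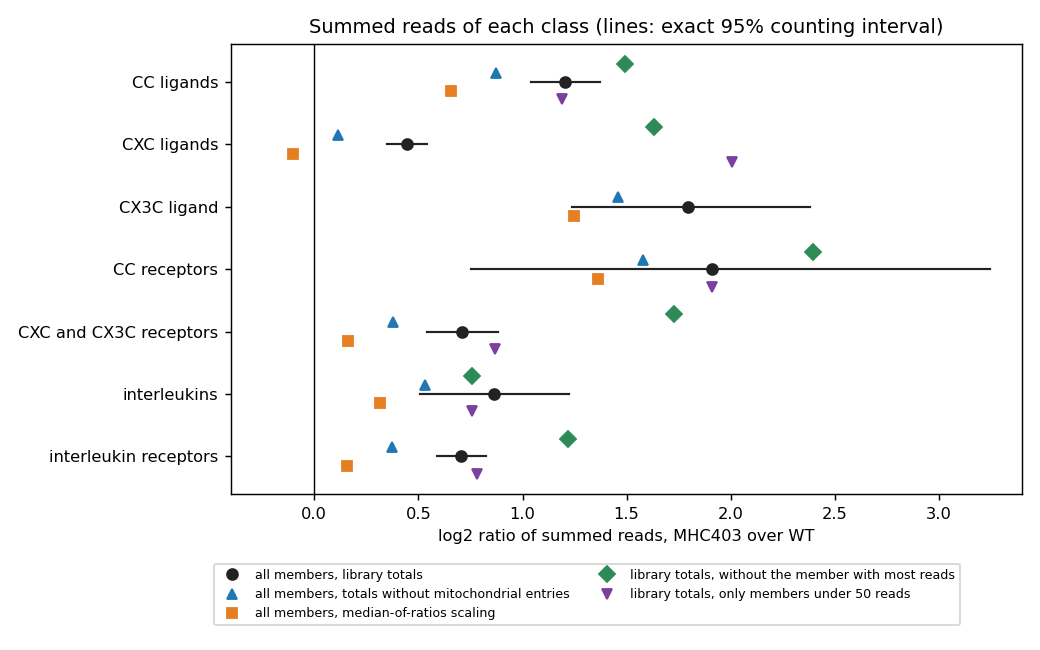
Log2 ratio of summed reads, MHC403 over WT, for each class of members with its exact 95% counting interval (black points and lines), beside the same sum under other scalings or without some members (coloured symbols). Median-of-ratios scaling (orange) moves every class left by 0.55, which takes the CXC ligands to -0.10, and leaving out Cxcl12 (green) takes that class to 1.63.

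Lists outside the name rule, drawn up for the pathways these proteins use, are given here by their counts, to be read against the 26.1% of all measured entries that were higher. Of 24 genes of interleukin-1 and NF-kB signalling 17 were measured, 6 were 2-fold or more higher, none was lower and the median log2 ratio was 0.77. The NF-kB subunit Relb had 66 reads against 7, 9.45-fold higher (4.34 to 24.4), Nfkb2 373 against 108, 3.46-fold higher (2.79 to 4.33), and the kinase Irak2 96 against 34, 2.83-fold higher (1.90 to 4.32). Rela had 300 against 132, 2.28-fold higher (1.85 to 2.82). None of the 7 inflammasome genes that process interleukin-1 and interleukin-18 was measured, and they summed to 72 reads against 50.

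Of 15 genes of JAK-STAT signalling 13 were measured, 5 were higher and 1 lower, with a median of 0.78. Socs3, a feedback inhibitor induced by Stat3, had 229 reads against 20, 11.5-fold higher (7.26 to 19.1). Stat3 itself had 1025 against 408, 2.52-fold higher (2.24 to 2.83), Socs2 314 against 96, 3.28-fold higher (2.60 to 4.16), and the kinase Tyk2 77 against 28, 2.76-fold higher (1.77 to 4.41). Of 11 genes of chemokine receptor signalling 7 were measured and 4 were higher, namely Arrb2 (3.28-fold, 2.41 to 4.52), Gnai2 (2.52-fold, 2.33 to 2.74), Gnai3 (2.51-fold, 1.68 to 3.80) and Gnb1 (2.19-fold, 1.93 to 2.48). Of the 10 further chemokines and atypical receptors 4 were measured and 2 were higher. They were Cmklr1, the chemerin receptor, with 231 against 49, 4.73-fold higher (3.46 to 6.57), and the platelet chemokine Pf4 with 85 against 34, 2.51-fold higher (1.67 to 3.85). Chemerin itself, Rarres2, had 301 against 246, 1.23-fold higher (1.03 to 1.46), and Ccrl2, which presents chemerin, 31 against 51, 1.64-fold lower (1.03 to 2.65). With median-of-ratios scaling, which puts the typical gene at a ratio of 1, the higher genes came to 2 in the NF-kB list, 2 in the JAK-STAT list, 1 in the list of receptor signalling and 1 among the further chemokines, where Ccrl2 was then 1 lower gene. Over all measured entries this scaling gave 10.9% higher and 7.59% lower, against which 2 of 17 in the NF-kB list and 2 of 13 in the JAK-STAT list are to be read.

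Markers of the cells that make or carry these proteins also differed between the libraries, and their part in the values above was not tested. As a yardstick for the marker counts, library totals put 26.1% of all measured entries at least 2-fold higher, and median-of-ratios scaling put 10.9% there. Calls in the lower direction took 2.43% by library totals, which became 7.59% once median-of-ratios scaling was used. Of 14 macrophage markers 12 were measured and 11 were higher by 2-fold or more (6 with median-of-ratios scaling). Their summed level was 867 RPM in MHC403 and 289 in WT, with Cd68 5.55-fold (4.02 to 7.80), Cd14 5.27-fold (3.57 to 8.01) and C1qa 3.29-fold (2.86 to 3.81) higher. The measured marker that was not called was Cd163, with 78 reads against 75 (ratio 1.04, 0.749 to 1.45). Under 50 reads, Ptprc had 19 against 9, with an interval that spans 1, and Fcgr1 had 10 against 1. Of 6 fibroblast markers 4 were higher (3 with median-of-ratios scaling), with summed levels of 1739 and 380.2 RPM. Postn was 58.2-fold (37.1 to 97.0), Col1a1 26.2-fold (22.6 to 30.5) and Lum 3.51-fold (2.55 to 4.91) higher. The others rose less: Pdgfra 2.25-fold (1.81 to 2.80), Dcn 1.79-fold (1.69 to 1.90) and Tcf21 1.79-fold (1.19 to 2.74), beside the 1.48-fold median of all measured entries. All 6 endothelial markers lay within 2-fold, at 466 against 367 RPM, with Vwf 1.91-fold (1.55 to 2.36), Pecam1 1.84-fold (1.59 to 2.13) and Cdh5 1.31-fold (1.18 to 1.44) higher. Kdr was 1.40-fold lower (1.16 to 1.69), Tek and Tie1 stood at ratios of 0.915 and 1.09, and with median-of-ratios scaling Kdr (0.489) was 2-fold lower. Of 6 smooth muscle and pericyte markers 3 were higher, at 403 against 270.2 RPM: Cspg4 4.51-fold (3.50 to 5.88), Acta2 2.94-fold (2.54 to 3.43) and Tagln 2.15-fold (1.77 to 2.62). Of the others Rgs5 was 1.30-fold lower (1.16 to 1.46), Kcnj8 and Myh11 stood at ratios of 0.882 and 1.03, and 2 of the 6 were higher by median-of-ratios. The 6 cardiac muscle markers summed to 38087 against 60221 RPM, with Myh6 2.40-fold (2.38 to 2.43) and Myl2 2.39-fold (2.36 to 2.42) lower and Actc1 1.85-fold (1.81 to 1.88) higher. Tnni3 was 1.72-fold lower (1.68 to 1.75), and Tnnt2 and Ttn stood at ratios of 1.05 and 1.01, so the list did not shift as 1.

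Lymphoid and granulocyte markers were near 0. T cell markers summed to 24 reads against 12 with Cd3d at 0 in both libraries, and B cell markers to 5 against 0 with Cd79b and Ms4a1 at 0 in both. Natural killer markers summed to 7 against 2 with Ncr1 at 0 in both. Of the neutrophil markers S100a9 had 74 reads against 6, 12.4-fold higher (5.42 to 34.8), but Mpo and Elane were at 0 in both libraries and S100a8 had 1 against 0. Dendritic markers summed to 41 against 23 with Cd209a at 0 in both, mast cell markers to 49 against 30, and platelet markers to 100 against 40, of which Pf4 gave 85 and 34.

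The size of these ratios depends on the scaling. Median-of-ratios scaling lowers every log2 ratio by 0.55. Under it 11 of the 24 measured entries were 2-fold or more higher, against 10.9% of all measured entries, and 1, Il10rb (2.05-fold lower), was lower, against 7.59%. The 3 that were no longer 2-fold higher were Ccl6 (1.79-fold), Cxcl14 (1.88-fold) and Il34 (1.55-fold). Ccl2 (10.97-fold), Il4ra (5.34-fold), Il17ra (5.35-fold) and Cxcl16 (4.77-fold) were still more than 4-fold higher, while Il11ra1 (0.775) and Il13ra1 (0.724) went from ratios just above 1 to ratios below it. Cxcl12 stood at a log2 ratio of -0.70 under this scaling, and Cxcr7 at 0.08.

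The authors' deposited table also holds a score for a change in start-site use (its formula: not given in the sources used here). In the authors' deposited table it was above 0 in 8 of the 24 members with at least 20 reads in both libraries, or in 5 of 21 with copies counted once, against 34.7% of all such entries. The highest scores among members in the authors' deposited table were 22 for Ccl27a, which has 4 annotated starts and shared copies, and 13 for Il13ra1, with 1 annotated start. Of all entries in the authors' deposited table with at least 20 reads in both libraries, 7.11% scored 22 or more and 12.6% scored 13 or more. Among measured members, the 4 genes with the highest ratios, Ccl2, Il4ra, Il17ra and Cxcl16, had a score of 0 in the authors' deposited table. Every member with under 20 reads in either library also had a score of 0 in the authors' deposited table. Ccl2 and Il17ra are among those, with 11 and 10 WT reads, so their score of 0 is not read as unchanged start-site use.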

How the data were processed

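RNA of pooled hearts was sequenced by 5′RNA-seq, 1 library per genotype. Per the submitters' processing notes, TopHat 1.0.14 was used with mm9; counting program, strand handling and multiply matching reads: not given in the sources used here. Raw read counts per entry are as the authors deposited them, per the file headers. The normalized values deposited beside them equal RPM over all listed entries when recomputed (largest difference 4.94e-06). A fold ratio and a p-value per entry, as the authors deposited them, were not used for any result. A start-site score per entry was deposited too.

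Ratios of counts scaled to library totals were computed (Python 3.11.15, scipy 1.17.1) with exact 95% intervals conditional on the reads of both libraries, tested on simulated data. For a gene with 50 reads in both libraries this interval spans 0.664 to 1.51. No test was made, since nothing measures the spread within a genotype; intervals leave out amplification and animal-to-animal variation. A call is a 2-fold point estimate where the higher library holds 50 reads or more. A library at 0 was set to 3 counts where the other exceeded 3.

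Named were all members with at least 50 reads, and those with 10 to 49 that were 4-fold different or had an interval excluding 1. From each pathway list up to 4 genes and from each marker list up to 3 were named by rule. Further markers were named to show the rest of a list, and other members are given by role. Members, lists and gene blocks were chosen with earlier results of these data known. Shared words are 36-base words of GENCODE M21 transcripts. Alternatives were 3 other scalings, read minimums, call rules, and leaving out overlapping or copied entries. Motifs were searched after the table was seen. Some single genes of the lists are not reported here.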

Additional observations from a re-analysis of the deposited data

How the results depend on the processing

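The count of members at least 2-fold higher, 14 of 24 with 50 reads, changed with the number of entries that the read minimum let in. It was 2 of 9 at a minimum of 200 reads, 25 of 41 at 20, 31 of 50 at 10 and 38 of 86 with no minimum. Of all entries 24.7% were higher at a minimum of 200 reads and 26.1% at 50. The shares of all entries higher or lower at minimums of 20, 10 or none were not counted. The count of lower members, 0 with 50 reads, was 1 with a minimum of 20, 2 with a minimum of 10, 3 with no minimum, 1 under median-of-ratios or TMM scaling, and 2 (Cxcl12 and Il10rb) where the interval had to lie wholly below 1. The median log2 ratio stayed above 0 under every alternative for which it was computed, and was lowest (0.81) with a minimum of 200 reads. The median of all measured entries was also above 0 (0.57 with library totals), so lying above 0 is not particular to the members.

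The log2 ratios of class sums changed with scaling and with the members summed. With median-of-ratios scaling they were 0.66 for CC ligands, -0.10 for CXC ligands, 0.16 for CXC and CX3C receptors, 0.32 for interleukins and 0.16 for interleukin receptors, and with TMM 0.66, -0.10, 0.16, 0.32 and 0.16. With totals that leave out mitochondrial entries they were 0.87 for CC ligands, 0.11 for CXC ligands, 0.38 for CXC and CX3C receptors and 0.37 for interleukin receptors. Without the member with most reads they were 1.49 for CC ligands (Ccl21a left out), 1.63 for CXC ligands (Cxcl12), 1.73 for CXC and CX3C receptors (Cxcr7) and 1.22 for interleukin receptors (Il10rb). CC ligands gave 1.02 with every copy summed, and CXC ligands 2.00 from members under 50 reads alone. Without overlapping entries, which removes Cxcl14 and Cxcl16, CXC ligands gave -0.10, and interleukins, without Il16, gave 1.26. The CXC sum thus reversed under 3 of these settings (median-of-ratios, TMM and without overlapping entries).

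No paired analysis was possible because each genotype has 1 pooled library. Of the 36 members with 1 to 9 reads in the higher library, all but Cxcl9 had intervals that span 1.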
